A study of Mus musculus with 12 samples.

Results

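The genes described here are 33 mouse genes of major histocompatibility complex (MHC) class I antigen presentation and of the NKG2D ligands, chosen as a list of symbols and found one by one in a table of 54232 genes; all 33 matched a single gene ID. RNA came from MMTV-NIC breast cancer cells, a mouse line in which the mammary tumour virus promoter drives an activated Neu (ErbB2) together with Cre recombinase. There were 4 groups of 3 libraries each, namely AXL KO cells in 1% oxygen (hypoxia), AXL WT cells in 1% oxygen, AXL KO cells in 21% oxygen (normoxia) and AXL WT cells in 21% oxygen. All groups share the Neu background. The knocked-out gene encodes AXL, a TAM family tyrosine kinase at the cell surface. Mouse strain, number of knockout clones and time in low oxygen are not stated in the labels. Whether a group's 3 libraries stem from separate cultures is not stated either. The p-values therefore reflect the spread among the sequenced libraries alone, which may be technical.

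A class I molecule is a heavy chain held by the light chain beta 2-microglobulin around a short peptide. Proteasomes cut the peptide from cell proteins, the TAP transporter carries it into the endoplasmic reticulum, peptidases trim it and the chaperone tapasin helps to load it, after which CD8 T cells can read it at the surface. NKG2D is an activating receptor of natural killer and T cells, and its ligands are class I-like proteins that stressed or transformed cells display. Interferon-gamma raises many of these genes through IRF1 and the transactivator NLRC5, which binds no DNA itself and acts with RFX, CREB and NF-Y factors at the X and Y elements of class I promoters.

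Each library held between 45297267 and 58775422 counted fragments. As the check of the labels, Axl had 78 to 105 counts in AXL KO hypoxia, 19395 to 28495 in AXL WT hypoxia, 164 to 200 in AXL KO normoxia and 47960 to 57291 in AXL WT normoxia. No pair of libraries of a group agreed within sampling noise. The AXL WT hypoxia libraries stood apart from each other: their within-group biological coefficient of variation was 0.406, against 0.0566 to 0.0909 in the other groups, and mouse Erbb2 had 2410, 131 and 360 CPM (the depth-normalised count of a gene, scaled by TMM) in libraries 1, 2 and 3. The tests used 1 estimate of the spread per gene, shared by all 12 libraries. SEs and p-values may therefore be too small in contrasts with AXL WT hypoxia and too large in those without it. The ribosomal RNA share was 0.52% in library 2 and 0.284% in library 3 of AXL WT hypoxia, and 0.0882% to 0.131% in all others. The luminal keratin genes Krt8 and Krt18 were abundant in every library, while Krt19 was at or near 0. Of 10 leukocyte markers 7 were too low to test, among them Ptprc, which encodes the pan-leukocyte protein CD45 and reached 0.0873 CPM at most. Scaling by library size alone shifted the all-gene median, in log2, by more than 0.1 in 4 of the contrasts. Among called genes the share that was higher was then 35.8% in place of 49.7% for AXL KO against AXL WT in normoxia. It was 36% in place of 47.1% for hypoxia in AXL KO and 33.2% in place of 48.8% for hypoxia in AXL WT.

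Promoter sequences of the chains are shown because their X and Y elements are where the transactivator complex acts, and they are followed by the interval between the divergent Psmb9 and Tap1 genes. RefSeq windows from 250 bases before to 50 bases after a start site (build GRCm38.p6) were found for 26 of the 33 members. Each line gives the 200 bases before a start site, 5′ to 3′ on the gene's strand. Capitals mark exact matches, on either strand, to GGGANTCCC (a kappaB element), GAANNGAAA (an interferon-stimulated element), TGATGAC (an X2 element) and CCAAT (a Y element, bound by NF-Y). These letters were chosen after the sequences had been seen. Other forms of the elements stay in lower case, such as ggggatttcc in H2-Q4 and gaaactgaaa in B2m. A line without capitals for an element therefore does not show that the element is absent. The printed intervals are chr17:34000348-34000547 (minus strand) for H2-K1, chr17:35262894-35263093 (plus) for H2-D1, chr17:35379417-35379616 (plus) for H2-Q4 and chr17:37270034-37270233 (plus) for H2-M3. They are chr17:36032702-36032901 (minus) for H2-T23, chr2:122147487-122147686 (plus) for B2m and chr17:34187331-34187555 for the 225 bases between the Psmb9 and Tap1 start sites, printed on the strand of Tap1.
H2-K1: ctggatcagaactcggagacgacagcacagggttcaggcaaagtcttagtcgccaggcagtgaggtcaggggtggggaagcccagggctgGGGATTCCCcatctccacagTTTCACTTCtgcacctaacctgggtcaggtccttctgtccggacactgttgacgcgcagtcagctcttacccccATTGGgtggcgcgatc
H2-D1: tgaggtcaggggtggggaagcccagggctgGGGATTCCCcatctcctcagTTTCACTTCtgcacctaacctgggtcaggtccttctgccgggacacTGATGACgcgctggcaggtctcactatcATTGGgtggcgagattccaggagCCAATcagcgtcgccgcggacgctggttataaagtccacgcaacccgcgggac
H2-Q4: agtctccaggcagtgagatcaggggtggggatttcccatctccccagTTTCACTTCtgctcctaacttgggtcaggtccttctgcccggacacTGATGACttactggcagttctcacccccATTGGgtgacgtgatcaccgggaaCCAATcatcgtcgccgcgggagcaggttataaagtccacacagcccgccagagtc
H2-M3: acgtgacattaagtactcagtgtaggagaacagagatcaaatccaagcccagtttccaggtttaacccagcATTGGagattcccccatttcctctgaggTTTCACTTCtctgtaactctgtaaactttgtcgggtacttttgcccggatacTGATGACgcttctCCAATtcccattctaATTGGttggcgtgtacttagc
H2-T23: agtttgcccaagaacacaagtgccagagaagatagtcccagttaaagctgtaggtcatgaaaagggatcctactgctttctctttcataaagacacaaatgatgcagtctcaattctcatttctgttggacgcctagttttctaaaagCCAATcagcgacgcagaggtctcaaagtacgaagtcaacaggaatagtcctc
B2m: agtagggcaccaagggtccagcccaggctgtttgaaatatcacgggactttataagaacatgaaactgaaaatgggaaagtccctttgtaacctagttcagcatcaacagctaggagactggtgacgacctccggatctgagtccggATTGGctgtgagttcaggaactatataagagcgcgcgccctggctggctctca
Psmb9-Tap1 interval: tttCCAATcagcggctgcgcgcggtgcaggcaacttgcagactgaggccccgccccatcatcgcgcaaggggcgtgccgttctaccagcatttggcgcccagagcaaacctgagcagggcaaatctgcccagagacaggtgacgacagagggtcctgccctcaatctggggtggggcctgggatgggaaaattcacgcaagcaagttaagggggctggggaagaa

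The kappaB letters lay in the windows of 2 of 2 classical and 2 of 8 non-classical heavy chain genes, against 0.767% of all 32851 windows. The interferon-stimulated letters lay in 2 of 2 and 5 of 8, against 7.52% of all windows. The X2 letters lay in 1 of 2 and 5 of 8, against 3.23%, and the Y letters in 2 of 2 and 7 of 8, against 37.4%. H2-K1, H2-D1, H2-Q4 and H2-M3 held the interferon-stimulated letters as spelled above, and H2-T23 and B2m did not match that spelling. The H2-T23 and B2m lines hold a longer form that the spelling leaves out. It is gaaactgaaa in B2m and, to be read on the other strand, tttctctttc in H2-T23. The missing match therefore does not show that H2-T23 and B2m lack the element. The hypoxia response core ACGTG lay in 0 of 2 classical and 4 of 8 non-classical windows, against 19.6% of all windows. TTCNNNGAA, an interferon-gamma activated site, lay in 0 of 2 and 1 of 8, against 8.3%. Heavy chain genes descend from one another, so these shared letters are not independent, and a match is a description of the sequence only. The kappaB, interferon-stimulated, X2 and Y letters were chosen with these promoters seen, so their shares beside all windows are not a test.

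In hypoxia, 20 of the 33 members were higher and 7 lower in AXL KO cells than in AXL WT cells, and 6 were not called. Of all 16767 genes tested, 63% were called in that contrast, 29.9% higher and 33% lower. In normoxia 21 members were higher, 8 lower and 4 not called, against 59.7% of all genes called, 29.7% higher and 30% lower. The median log2 fold change of the members was 0.71 in hypoxia and 0.78 in normoxia, beside -0.04 and -0.03 over all genes. Heavy chain, peptide transport and proteasome activator genes made up most of the higher members. The heavy chain genes, Tap1, Tap2, Tapbp, Psmb8 and Psmb9 lie in a single stretch of chromosome 17, from 33915899 to 37274484. This stretch held most of the higher members and no lower member at either oxygen level. The part of this shared position in the counts was not tested. Nlrc5, Psmb10, Psme3, Cd1d1, Raet1d, Raet1e and H60b were the 7 lower members in hypoxia, and the same 7 and Ulbp1 were lower in normoxia.

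**Figure D1:**
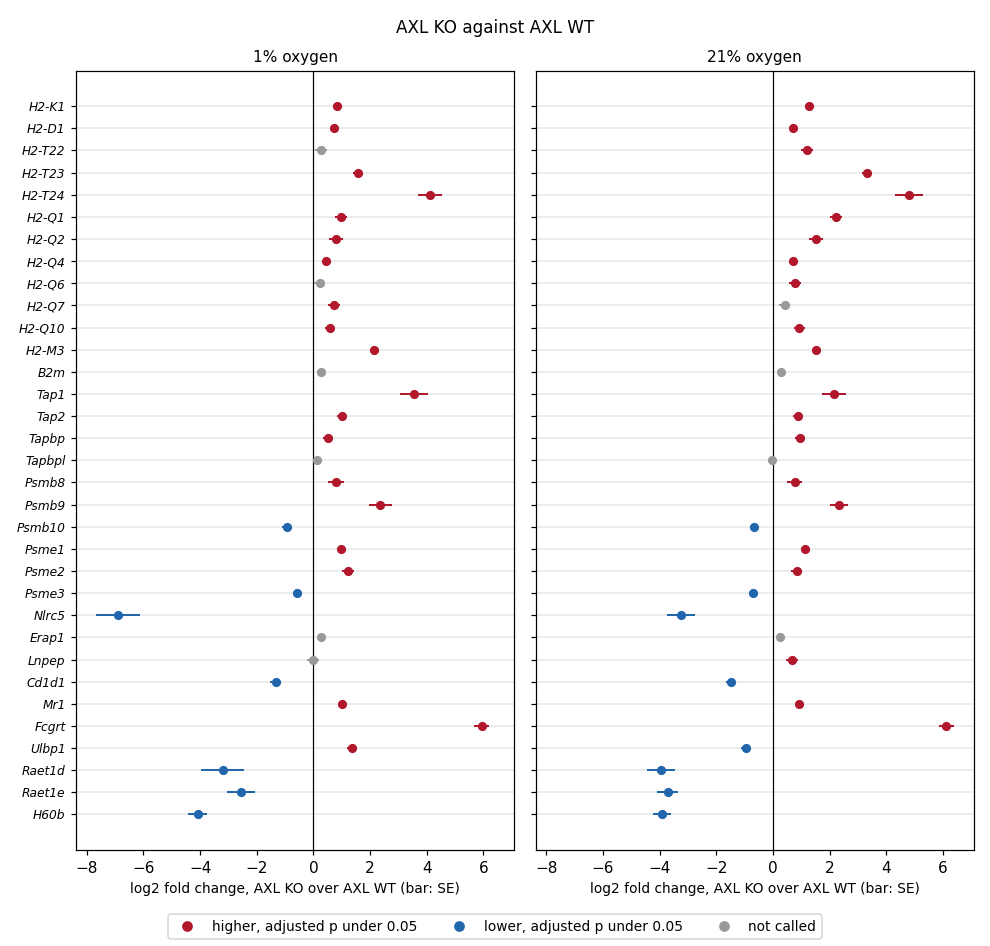
Log2 fold change of each of the 33 members, AXL KO over AXL WT, in 1% oxygen (left) and 21% oxygen (right), with bars of 1 SE; red and blue points passed the test and grey points did not. Most heavy chain, transport and immunoproteasome genes lie right of 0 in both panels, Nlrc5 and 3 of the NKG2D ligands lie far left, and Ulbp1 lies right of 0 in hypoxia and left of it in normoxia.

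The classical heavy chain genes H2-K1 and H2-D1, which present peptides to CD8 T cells, were higher in AXL KO cells at both oxygen levels. H2-K1 (chromosome 17, 33996017 to 34000333) stood at 684, 762 and 779 CPM in AXL KO hypoxia and at 396, 454 and 397 CPM in AXL WT hypoxia. In normoxia it stood at 482, 569.5 and 559 CPM in AXL KO and at 216, 228 and 229.5 CPM in AXL WT. Every AXL KO library lay above every AXL WT library at the same oxygen level, and the AXL KO hypoxia libraries were the highest of all 12. Its log2 fold change (± SE here and below) was 0.84 ± 0.10 in hypoxia (adjusted p = 1.57e-05) and 1.26 ± 0.10 in normoxia (adjusted p = 4.71e-07). H2-D1 (chromosome 17, 35262730 to 35267499) had 1324, 1411 and 1404 CPM in AXL KO hypoxia, against 946, 835 and 745 CPM in AXL WT hypoxia. In AXL KO normoxia it had 899, 934 and 978 CPM, against 557, 600.2 and 567 CPM in AXL WT normoxia. The genotypes again did not overlap at either oxygen level. The H2-D1 fold change was nearly equal at both, 0.71 ± 0.09 in hypoxia (adjusted p = 4.87e-05) and 0.71 ± 0.09 in normoxia (adjusted p = 4.6e-05). In bulk RNA, a change in the number of cells that express a gene and a change in RNA per cell cannot be told apart.

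Summed over the 12 heavy chain members, the level was 2395 ± 109.1 CPM in AXL KO hypoxia and 1403 ± 110.8 CPM in AXL WT hypoxia (SD, n = 3 each). It was 1644 ± 93.8 CPM in AXL KO normoxia and 868.7 ± 29.3 CPM in AXL WT normoxia (SD, n = 3 each). H2-K1 and H2-D1 together took 88.5% to 92.3% of these counts in every library. H2-K1 alone took 30.1% to 31.6% in AXL KO hypoxia, 26.5% to 31.7% in AXL WT hypoxia, 31.3% to 34% in AXL KO normoxia and 25.3% to 26.6% in AXL WT normoxia. Fragments that mapped to more than 1 place were not counted, and heavy chain genes share sequence. Of all 100-base stretches of their transcripts, 0.957% in H2-K1, 3.59% in H2-D1, 3.15% in H2-T23 and 0% in H2-M3 also occur in another gene. The share was 31.5% in H2-T22, 14.1% in H2-Q4, 13% in H2-Q6 and 12% in H2-Q7. The leading partners of H2-Q4, namely Gm11131, Tyms, Vmn1r-ps144 and Olfr1238, are not heavy chain genes. These shares count both strands and any other gene. They include Gm11131, an antisense gene that overlaps H2-Q4, and A930015D03Rik, an antisense gene that overlaps H2-T22. Stretches shared with such a gene can still map to 1 place, so the shares do not measure the fragments lost. Neither the read length nor the alleles of these cells are given, and how far the counts of single H2 genes depend on either was not tested.

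Among the non-classical heavy chains, which are less polymorphic and mostly serve specialised receptors, 8 of 10 were higher in AXL KO in hypoxia and 9 of 10 in normoxia, and none was lower. H2-T23 encodes Qa-1, which shows leader peptides of other class I chains to the inhibitory receptor NKG2A. It stood at 66.5, 73.6 and 72.5 CPM in AXL KO hypoxia, against 18.8, 29.4 and 23.7 CPM in AXL WT hypoxia. In AXL KO normoxia it stood at 41.2, 46.5 and 53.4 CPM, against 4.93, 4.8 and 4.45 CPM in AXL WT normoxia. The AXL WT normoxia libraries were the lowest by a wide margin and no groups overlapped. Its log2 fold change was 1.56 ± 0.16 in hypoxia (adjusted p = 5.26e-06) and 3.31 ± 0.17 in normoxia (adjusted p = 1.71e-08). H2-M3, which presents N-formylated peptides of bacteria and mitochondria, had 51.4, 53.8 and 54.2 CPM in AXL KO hypoxia and 15.3, 9.49 and 11.3 CPM in AXL WT hypoxia. In normoxia H2-M3 had 23.4, 23 and 25.1 CPM in AXL KO and 8.34, 8.15 and 8.19 CPM in AXL WT. Its AXL KO libraries lay above all AXL WT libraries of either oxygen level, with a fold change of 2.14 ± 0.15 in hypoxia (adjusted p = 3.36e-07) and 1.54 ± 0.15 in normoxia (adjusted p = 3.69e-06).

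H2-Q4 had 107, 112 and 117 CPM in AXL KO hypoxia and 98.1, 68.5 and 79.8 CPM in AXL WT hypoxia. It had 72.3, 79.6 and 79.9 CPM in AXL KO normoxia and 46.4, 49.9 and 44.4 CPM in AXL WT normoxia. The genotypes did not overlap, but AXL WT hypoxia library 1 lay close to the AXL KO hypoxia libraries. The fold change was 0.45 ± 0.12 in hypoxia (adjusted p = 0.00694) and 0.72 ± 0.12 in normoxia (adjusted p = 0.000302). The hypoxia call was lost with library size alone (0.28, adjusted p = 0.0774), with the 6 compared libraries alone (0.40, adjusted p = 0.0662) and without AXL WT hypoxia libraries 2 and 3 (0.19, adjusted p = 0.0986). H2-T22, whose product holds no peptide and is bound by some gamma-delta T cells, had 19.9, 18.1 and 19.2 CPM in AXL KO hypoxia and 11.8, 22.2 and 13.7 CPM in AXL WT hypoxia. In normoxia H2-T22 had 9.72, 11.3 and 11 CPM in AXL KO and 4.81, 4.67 and 4.37 CPM in AXL WT. AXL WT hypoxia library 2 was the highest of all 12 for this gene, so the groups overlapped in hypoxia and not in normoxia. The fold change was 0.26 ± 0.20 in hypoxia, which did not pass (adjusted p = 0.266), and 1.21 ± 0.20 in normoxia (adjusted p = 0.00029). Without AXL WT hypoxia library 2 the hypoxia value was 0.58 and passed (adjusted p = 0.00165).

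The other 6 non-classical members were low, with group means of at most 4.73 CPM. H2-T24 averaged 2.19 ± 0.271 CPM in AXL KO hypoxia and 0.124 ± 0.0304 CPM in AXL WT hypoxia (SD, n = 3 each). In normoxia it averaged 0.889 ± 0.218 CPM in AXL KO and 0.0292 ± 0.0267 CPM in AXL WT (SD, n = 3 each). Its fold changes, 4.11 ± 0.41 (adjusted p = 5.63e-06) in hypoxia and 4.79 ± 0.50 (adjusted p = 5.66e-06) in normoxia, exceeded those of every other heavy chain member and rest on few counts in AXL WT. Without AXL WT normoxia library 3 the normoxia value was 5.48, a fitted value on 2 AXL WT counts. H2-Q1 averaged 4.73 ± 0.789 CPM in AXL KO hypoxia, against 2.41 ± 0.402 CPM in AXL WT hypoxia (SD, n = 3 each). Its normoxia averages were 3.09 ± 0.361 CPM for AXL KO and 0.667 ± 0.032 CPM for AXL WT (SD, n = 3 each). The H2-Q1 fold change was 0.97 ± 0.20 in hypoxia (adjusted p = 0.00117) and 2.21 ± 0.21 in normoxia (adjusted p = 2.94e-06). H2-Q2 and H2-Q10 were higher in AXL KO at both oxygen levels, by 0.79 ± 0.25 and 0.58 ± 0.18 in hypoxia (adjusted p = 0.0154 and 0.0153). H2-Q7, a gene of the Qa-2 antigen, passed in hypoxia (0.72 ± 0.20, adjusted p = 0.00773) and stood at 0.41 ± 0.20 in normoxia (adjusted p = 0.104). H2-Q6 passed in normoxia (0.78 ± 0.20, adjusted p = 0.00509) and stood at 0.22 ± 0.19 in hypoxia (adjusted p = 0.335). The interaction was not called for either gene (adjusted p = 0.444 for H2-Q7 and 0.158 for H2-Q6). The hypoxia calls of H2-Q2, H2-Q7 and H2-Q10 were lost with voom and a weight per group (adjusted p = 0.12, 0.139 and 0.15) and with the compared libraries alone (adjusted p = 0.07, 0.0567 and 0.0941). Without AXL WT hypoxia libraries 2 and 3, H2-Q7 and H2-Q10 lost theirs (adjusted p = 0.0542 and 0.101), as did H2-Q10 with library size alone (adjusted p = 0.0597) and with no filter (adjusted p = 0.0543).

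**Figure D2:**
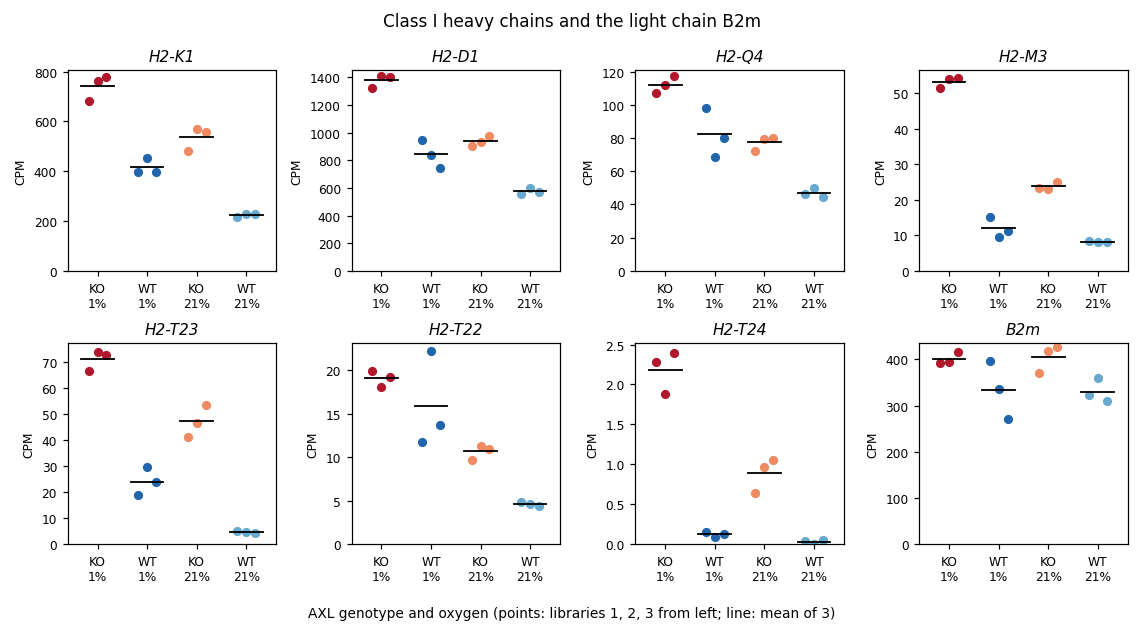
CPM of 7 heavy chain genes and B2m in each of the 12 libraries, with the AXL KO and AXL WT groups side by side in 1% and then 21% oxygen; points are libraries and lines are group means. AXL KO hypoxia holds the highest libraries of H2-K1, H2-D1, H2-M3, H2-T23 and H2-T24, while the B2m points lie between 271.3 and 427.6 CPM in all groups.

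B2m, the gene of the class I light chain, did not pass the test in any contrast. It had 391, 394 and 417 CPM in AXL KO hypoxia and 396, 336 and 271 CPM in AXL WT hypoxia. It had 370.4, 419 and 428 CPM in AXL KO normoxia and 322, 359.9 and 309 CPM in AXL WT normoxia. The genotypes overlapped in hypoxia through AXL WT hypoxia library 1 and did not overlap in normoxia. The log2 fold change was 0.26 ± 0.13 in hypoxia (adjusted p = 0.0891) and 0.30 ± 0.13 in normoxia (adjusted p = 0.0608). B2m passed as higher in AXL KO in hypoxia without AXL WT hypoxia library 1 (0.41, adjusted p = 0.00359), and in normoxia without AXL WT normoxia library 2 (0.40, adjusted p = 0.0393), without AXL WT hypoxia library 1 (adjusted p = 0.0126) or without library 3 (adjusted p = 0.0178). In normoxia it also passed without AXL WT hypoxia libraries 2 and 3 (adjusted p = 0.00107), with the compared libraries alone (adjusted p = 0.00453) and with voom and a weight per group (adjusted p = 0.00121). Per kilobase of exon, B2m stood at 466 CPM in AXL KO hypoxia, 388.6 in AXL WT hypoxia, 471.8 in AXL KO normoxia and 384.2 in AXL WT normoxia. H2-D1 stood at 534.8, 326.6, 363.4 and 222.9 CPM per kilobase in the same groups, and so above B2m in AXL KO hypoxia alone.

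The peptide transporter genes were higher in AXL KO cells at both oxygen levels. Tap1, one subunit of the transporter, had 5.6, 7.82 and 8.05 CPM in AXL KO hypoxia and 1.24, 0.117 and 0.478 CPM in AXL WT hypoxia. It had 20.3, 16.9 and 19.8 CPM in AXL KO normoxia and 3.95, 5.1 and 3.86 CPM in AXL WT normoxia. All groups were separate, and the AXL WT hypoxia libraries, the lowest, differed in proportion more among themselves than those of other groups did. The log2 fold change was 3.54 ± 0.49 in hypoxia (adjusted p = 6.91e-05) and 2.14 ± 0.43 in normoxia (adjusted p = 0.00101). Without AXL WT hypoxia library 1 the hypoxia value was 4.55, and with that library as the only one of its group it was 2.53. Tap2, the other subunit, had 72.8, 74.1 and 74.9 CPM in AXL KO hypoxia and 48.1, 25.9 and 35.5 CPM in AXL WT hypoxia. In normoxia Tap2 had 89.7, 84.4 and 86.2 CPM in AXL KO and 46.4, 50.1 and 45.4 CPM in AXL WT. The genotypes did not overlap, and the fold change was 1.02 ± 0.17 in hypoxia (adjusted p = 0.000288) and 0.88 ± 0.17 in normoxia (adjusted p = 0.000804).

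Tapbp encodes tapasin, which bridges the transporter and the empty heavy chain. It had 292, 315 and 321 CPM in AXL KO hypoxia and 153, 274 and 227 CPM in AXL WT hypoxia. In normoxia Tapbp had 173, 223 and 247 CPM in AXL KO and 106, 112 and 112 CPM in AXL WT. Genotypes did not overlap, although AXL WT hypoxia library 2 came near the AXL KO hypoxia libraries. The fold change was 0.51 ± 0.18 in hypoxia (adjusted p = 0.0288) and 0.96 ± 0.18 in normoxia (adjusted p = 0.00068). The hypoxia call was lost in 10 of 21 alternatives, among them without any 1 of the AXL WT normoxia libraries (adjusted p = 0.056, 0.0562 and 0.0566), without AXL WT hypoxia library 3 (0.54, adjusted p = 0.052) and without AXL KO hypoxia library 2 or 3 (adjusted p = 0.0622 and 0.0698). Tapbp and Zbtb22 overlap by 3421 bases on the same strand, and fragments that overlapped both were not counted. Tapbpl, a tapasin relative that edits bound peptides, did not pass in either contrast, at 0.14 ± 0.16 in hypoxia (adjusted p = 0.472) and -0.02 ± 0.16 in normoxia (adjusted p = 0.904).

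Psmb8, Psmb9 and Psmb10 encode the catalytic subunits that replace the constitutive ones under interferon-gamma; Psmb8 and Psmb9 were higher in AXL KO and Psmb10 was lower. Psmb9 shares its promoter interval with Tap1 and, at its low level, was higher in AXL KO. It averaged 0.536 ± 0.0862 CPM in AXL KO hypoxia and 0.102 ± 0.067 CPM in AXL WT hypoxia (SD, n = 3 each). In normoxia it averaged 2.51 ± 0.56 CPM in AXL KO and 0.503 ± 0.1 CPM in AXL WT (SD, n = 3 each). The fold change was 2.35 ± 0.41 in hypoxia (adjusted p = 0.000371) and 2.32 ± 0.32 in normoxia (adjusted p = 5.96e-05). The hypoxia value was 2.98 without AXL WT hypoxia library 1 and lost its call with voom and a weight per group (adjusted p = 0.0686). Psmb8 was higher by 0.78 ± 0.28 in hypoxia (adjusted p = 0.0275) and 0.76 ± 0.28 in normoxia (adjusted p = 0.0321). Its libraries overlapped in hypoxia, and the value was 0.10 without AXL WT hypoxia libraries 2 and 3 (adjusted p = 0.605). The hypoxia call was also lost without AXL WT hypoxia library 2 or 3 (adjusted p = 0.0832 and 0.0969) or AXL KO hypoxia library 1 or 2 (adjusted p = 0.0685 and 0.0717), and its normoxia call without any of 5 single normoxia libraries, AXL WT 1 and 3 and AXL KO 1, 2 and 3 (adjusted p = 0.0614 to 0.0822). Both Psmb8 calls were lost with library size alone (adjusted p = 0.0678 in hypoxia and 0.13 in normoxia). The compared libraries alone also lost the hypoxia call (adjusted p = 0.129). Psmb10 went the other way, with 1.89, 2.46 and 2.33 CPM in AXL KO hypoxia and 3.56, 4.95 and 4.45 CPM in AXL WT hypoxia. In normoxia Psmb10 had 9.93, 12.3 and 11.1 CPM in AXL KO and 16.4, 18.9 and 17.4 CPM in AXL WT. All 4 groups were separate, and the fold change was -0.95 ± 0.17 in hypoxia (adjusted p = 0.000472) and -0.66 ± 0.16 in normoxia (adjusted p = 0.00357).

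Psme1 and Psme2 encode the subunits of the PA28 alpha-beta cap, which opens the proteasome, and both were higher in AXL KO. Psme1 had 31.9, 34.6 and 33.7 CPM in AXL KO hypoxia and 19.7, 14.8 and 16.5 CPM in AXL WT hypoxia. It had 63.9, 71.9 and 65.1 CPM in AXL KO normoxia and 29.1, 32.5 and 31.2 CPM in AXL WT normoxia. The genotypes did not overlap at the same oxygen level, and the fold change was 0.98 ± 0.12 in hypoxia (adjusted p = 2.17e-05) and 1.11 ± 0.12 in normoxia (adjusted p = 5.75e-06). Psme2 had 49.9, 59.8 and 59.8 CPM in AXL KO hypoxia and 33.5, 15.8 and 24 CPM in AXL WT hypoxia. In normoxia Psme2 had 76, 92.8 and 84.4 CPM in AXL KO and 47, 49.4 and 46.1 CPM in AXL WT. Its genotypes did not overlap either, with a fold change of 1.21 ± 0.21 in hypoxia (adjusted p = 0.000373) and 0.83 ± 0.21 in normoxia (adjusted p = 0.00442). Of the 100-base stretches of Psme2 transcripts, 18.4% also occur in the copy Psme2b. Psme3, the PA28 gamma cap of nuclear proteasomes, was lower in AXL KO, with 42.9, 44 and 43.1 CPM in AXL KO hypoxia and 55.7, 69.2 and 71.5 CPM in AXL WT hypoxia. In normoxia Psme3 had 74.2, 70.6 and 60.4 CPM in AXL KO and 106, 113 and 113 CPM in AXL WT. AXL KO libraries were the lower ones at each oxygen level, with a fold change of -0.59 ± 0.11 in hypoxia (adjusted p = 0.000653) and -0.70 ± 0.11 in normoxia (adjusted p = 0.000187).

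The class I transactivator Nlrc5 went against the heavy chains. It had 0, 0.0448 and 0.022 CPM in AXL KO hypoxia, which is 3 counts in all, and 1.22, 5.16 and 2.72 CPM in AXL WT hypoxia. In normoxia Nlrc5 had 0.554, 0.811 and 0.329 CPM in AXL KO and 5.52, 6.14 and 4.57 CPM in AXL WT. Every AXL KO library lay below every AXL WT library, while H2-K1, H2-D1, H2-T23 and H2-M3 stood higher in AXL KO. In hypoxia the summed counts, scaled to depth, were 131-fold lower in AXL KO, with a 95% counting interval of 44.4 to 636 that covers counting error only (adjusted p = 1.18e-05). The fitted log2 fold change, which depends on the prior count, was -6.91, against -6.29 without AXL WT hypoxia library 2, -7.75 without AXL KO hypoxia library 2 and -5.60 without AXL WT hypoxia libraries 2 and 3. In normoxia the log2 fold change was -3.25 ± 0.50 (adjusted p = 0.000139). Library 2 of AXL WT hypoxia was the highest of its group for this gene and library 1 the lowest.

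**Figure D3:**
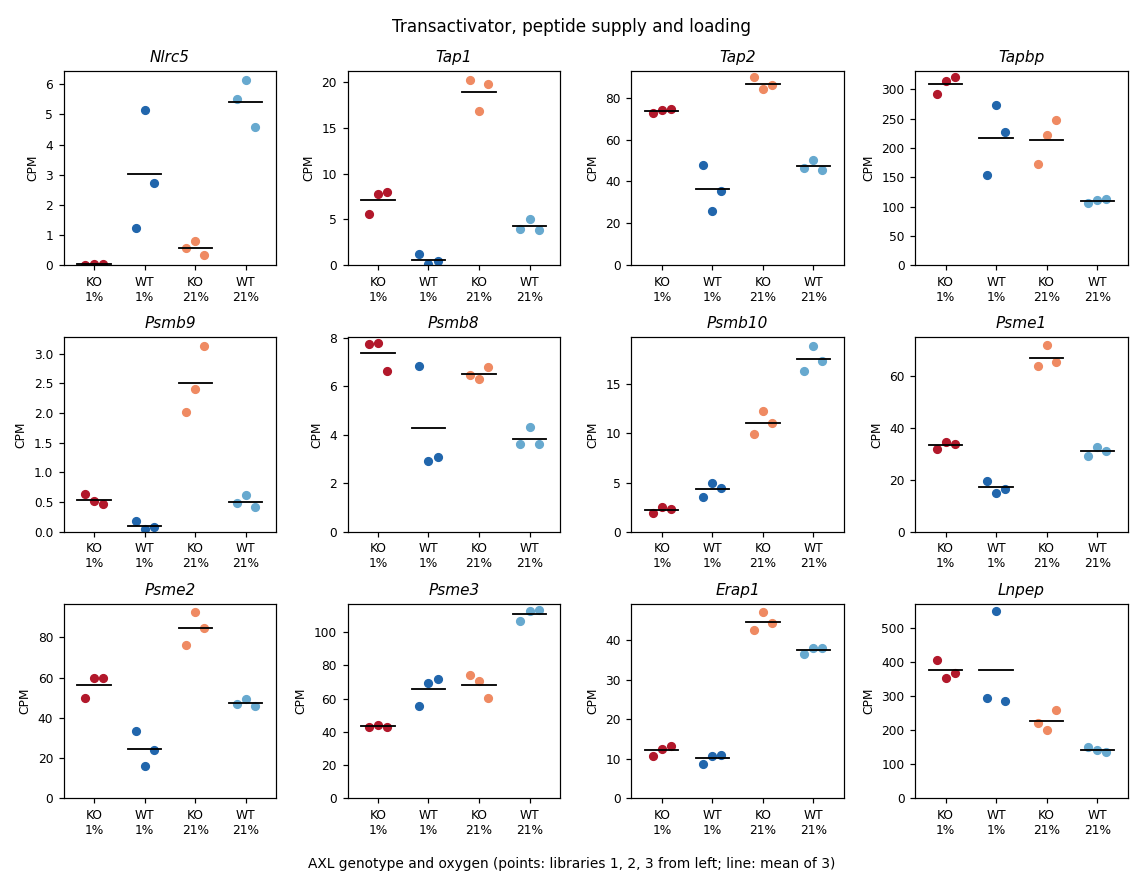
CPM of Nlrc5 and of 11 genes of peptide supply and loading in each of the 12 libraries, with AXL KO left of AXL WT in 1% and then 21% oxygen; points are libraries and lines are group means. Nlrc5 is near 0 in AXL KO hypoxia, where Tap1, Tap2 and Psme1 lie above AXL WT hypoxia, and Psmb10 and Psme3 lie lower in AXL KO than in AXL WT at each oxygen level.

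Of the trimming peptidases, Lnpep was higher in AXL KO in normoxia and Erap1 passed in neither genotype contrast. Erap1, which trims peptides in the endoplasmic reticulum, was at 0.27 ± 0.12 in hypoxia (adjusted p = 0.0696) and 0.25 ± 0.12 in normoxia (adjusted p = 0.0882). It passed in hypoxia without AXL WT hypoxia library 2 or 3 (adjusted p = 0.0426 and 0.0496) or AXL KO hypoxia library 1 (adjusted p = 0.0345), and in normoxia without AXL WT hypoxia library 1 (adjusted p = 0.0235). It also passed in normoxia without AXL WT hypoxia libraries 2 and 3 (adjusted p = 0.00628), with the compared libraries alone (adjusted p = 0.00371), with voom and a weight per group (adjusted p = 0.00274) and with DESeq2 (adjusted p = 0.0409), and in hypoxia without AXL WT hypoxia libraries 2 and 3 (adjusted p = 0.00273). Lnpep, an endosomal peptidase of cross-presentation, had 406, 352 and 367 CPM in AXL KO hypoxia and 294, 549 and 286 CPM in AXL WT hypoxia. In normoxia Lnpep had 221, 199.9 and 258 CPM in AXL KO and 149.5, 141 and 136 CPM in AXL WT. AXL WT hypoxia library 2 exceeded all other libraries, so the groups overlapped in hypoxia but not in normoxia. The fold change was -0.0045 ± 0.21 in hypoxia (adjusted p = 0.988) and 0.67 ± 0.21 in normoxia (adjusted p = 0.0162). Without AXL WT hypoxia library 2 the hypoxia value was 0.37 and passed (adjusted p = 0.012), and without AXL KO normoxia library 3 the normoxia call was lost (0.57, adjusted p = 0.0634). Library size alone lost the normoxia call as well (0.41, adjusted p = 0.0748).

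Among class I-like molecules Fcgrt and Mr1 were higher and Cd1d1 lower in AXL KO. Fcgrt, the neonatal Fc receptor that recycles IgG and albumin and presents no peptide, had 32.4, 37 and 34.8 CPM in AXL KO hypoxia and 0.883, 0.398 and 0.415 CPM in AXL WT hypoxia. It had 46.2, 47 and 56.9 CPM in AXL KO normoxia and 0.652, 0.8 and 0.698 CPM in AXL WT normoxia. All AXL WT libraries lay below 1 CPM and all AXL KO libraries above 30 CPM. The log2 fold change was 5.93 ± 0.26 in hypoxia (adjusted p = 4.9e-09) and 6.12 ± 0.25 in normoxia (adjusted p = 3.13e-09), the largest rises among the 33 members. With AXL WT hypoxia library 1 as the only one of its group the hypoxia value was 5.29. Mr1, which shows vitamin B metabolites to mucosal-associated invariant T cells, had 108, 114 and 115 CPM in AXL KO hypoxia and 66.5, 48.9 and 52.2 CPM in AXL WT hypoxia. In normoxia Mr1 had 63.2, 68.8 and 78.4 CPM in AXL KO and 36.2, 40.0 and 36.5 CPM in AXL WT. The genotypes did not overlap at the same oxygen level, with a fold change of 1.01 ± 0.12 in hypoxia (adjusted p = 2.9e-05) and 0.90 ± 0.12 in normoxia (adjusted p = 6.07e-05). Cd1d1, which shows lipids to natural killer T cells, had 1.46, 1.97 and 1.63 CPM in AXL KO hypoxia and 4.33, 3.61 and 4.86 CPM in AXL WT hypoxia. In normoxia Cd1d1 had 3.77, 4.86 and 4.49 CPM in AXL KO and 11.9, 13.2 and 11.5 CPM in AXL WT. AXL KO libraries were the lower ones at each oxygen level, with a fold change of -1.34 ± 0.18 in hypoxia (adjusted p = 6.39e-05) and -1.48 ± 0.18 in normoxia (adjusted p = 1.74e-05). Of its 100-base stretches 10.5% also occur in Cd1d2.

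Of the NKG2D ligands, Ulbp1 (MULT1) was the most abundant, and the sign of its genotype difference depended on oxygen. Ulbp1 (chromosome 10, 7440362 to 7473638) had 36.9, 41.7 and 41.5 CPM in AXL KO hypoxia and 18.6, 15.6 and 12.5 CPM in AXL WT hypoxia. It had 8.56, 11.8 and 12.4 CPM in AXL KO normoxia and 20.8, 20.4 and 22.9 CPM in AXL WT normoxia. AXL KO libraries were the highest of all in hypoxia and the lowest of all in normoxia, with no overlap between genotypes at the same oxygen level. The log2 fold change was 1.37 ± 0.17 in hypoxia (adjusted p = 3.07e-05) and -0.97 ± 0.17 in normoxia (adjusted p = 0.000381).

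H60b, Raet1e and Raet1d, the other ligands, were low and were lower in AXL KO at both oxygen levels. H60b averaged 0.28 ± 0.158 CPM in AXL KO hypoxia and 4.76 ± 0.994 CPM in AXL WT hypoxia (SD, n = 3 each). In normoxia it averaged 0.344 ± 0.0529 CPM in AXL KO and 5.24 ± 0.307 CPM in AXL WT (SD, n = 3 each). Its fold change was -4.09 ± 0.33 in hypoxia (adjusted p = 8.16e-07) and -3.92 ± 0.31 in normoxia (adjusted p = 6.29e-07), with no overlap. Raet1e averaged 0.0524 ± 0.0326 CPM in AXL KO hypoxia, 0.326 ± 0.0847 CPM in AXL WT hypoxia, 0.128 ± 0.0425 CPM in AXL KO normoxia and 1.72 ± 0.452 CPM in AXL WT normoxia (SD, n = 3 each). Its fold change was -2.56 ± 0.49 in hypoxia (adjusted p = 0.000741) and -3.72 ± 0.38 in normoxia (adjusted p = 5.1e-06). Raet1d had 2 counts in all in AXL KO hypoxia, where the summed counts were 10.6-fold lower than in AXL WT hypoxia (95% counting interval 2.61 to 93.1, adjusted p = 0.00329). That call was lost without AXL WT hypoxia libraries 2 and 3 (adjusted p = 0.0936) and with voom and a weight per group (adjusted p = 0.0507). In normoxia Raet1d was at -3.95 ± 0.49 (adjusted p = 2.49e-05). Raet1e spans 22158569 to 22374139 on the plus strand of chromosome 10 and overlaps both H60b and Raet1d, which do not overlap each other. Of the 100-base stretches, 35.7% in Raet1d and 26.8% in Raet1e occur in another gene as well. The other gene was Raet1e for Raet1d, and Raet1d or H60b for Raet1e. Fragments from such stretches were left out of the counts where they mapped to more than 1 place or overlapped more than 1 gene. How far this lowered the counts of Raet1d, Raet1e and H60b was not tested.

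**Figure D4:**
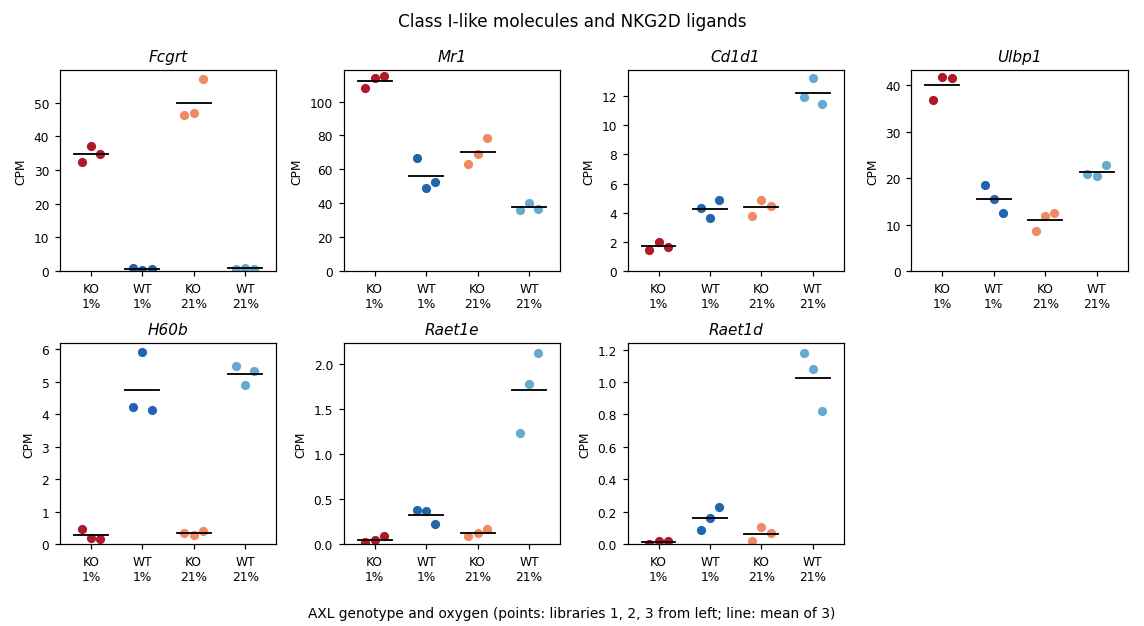
CPM of 3 class I-like genes and 4 NKG2D ligand genes in each of the 12 libraries, with AXL KO left of AXL WT in 1% and then 21% oxygen; points are libraries and lines are group means. Every AXL KO library and no AXL WT library exceeds 1 CPM for Fcgrt, the reverse holds for H60b, and Ulbp1 peaks in AXL KO hypoxia.

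In low oxygen the heavy chain genes rose. Of the 6 immunoproteasome and activator genes 5 fell and 0 rose in each genotype, of the 4 transport and loading genes 2 fell and 1 rose, and of the 2 trimming peptidases 1 fell and 1 rose. These contrasts use the same 12 libraries as the genotype contrasts, so the results are not independent of each other. In AXL KO cells 15 members rose in hypoxia, 11 fell and 7 were not called, against 58% of all genes called, 27.3% higher and 30.6% lower. In AXL WT cells 15 rose, 12 fell and 6 were not called, against 59.8% of all genes, 29.2% higher and 30.7% lower. The median log2 fold change of the members was 0.18 in AXL KO and 0.02 in AXL WT, beside -0.03 and -0.02 over all genes. Both classical and 9 of 10 non-classical heavy chains rose in AXL KO, and all 12 rose in AXL WT. The exception in AXL KO was H2-Q2 (0.58 ± 0.24, adjusted p = 0.0618). Heavy chain fold changes ran from 0.47 (H2-K1) to 1.3 (H2-T24) in AXL KO and from 0.55 (H2-M3) to 2.34 (H2-T23) in AXL WT. H2-D1 rose by 0.56 ± 0.09 in AXL KO (adjusted p = 0.00037) and by 0.55 ± 0.09 in AXL WT (adjusted p = 0.000371). Mr1 rose in both as well, by 0.68 ± 0.12 in AXL KO (adjusted p = 0.000635) and 0.57 ± 0.12 in AXL WT (adjusted p = 0.00189). With library size alone, H2-M3, H2-Q7 and Mr1 lost their calls in AXL WT (adjusted p = 0.178, 0.153 and 0.0712), and H2-Q1, H2-Q6 and H2-Q10 lost theirs in AXL KO (adjusted p = 0.0996, 0.151 and 0.112). Those 3 AXL KO calls also fell away without AXL KO normoxia library 1 (adjusted p = 0.0713, 0.063 and 0.0504) or library 2 (adjusted p = 0.0655, 0.0693 and 0.0765), and without AXL KO hypoxia library 3 (adjusted p = 0.0543, 0.141 and 0.0566). H2-Q6 lost it as well without AXL KO normoxia library 3 (adjusted p = 0.0858) or AXL WT normoxia library 3 (adjusted p = 0.0533), and H2-Q1 and H2-Q10 without AXL KO hypoxia library 2 (adjusted p = 0.0786 and 0.0572). H2-Q7 in AXL WT lost it without AXL WT normoxia library 3 (adjusted p = 0.053), and H2-T24 in AXL WT moved to 2.66 without the same library and lost its call with voom and a weight per group (adjusted p = 0.17).

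**Figure D5:**
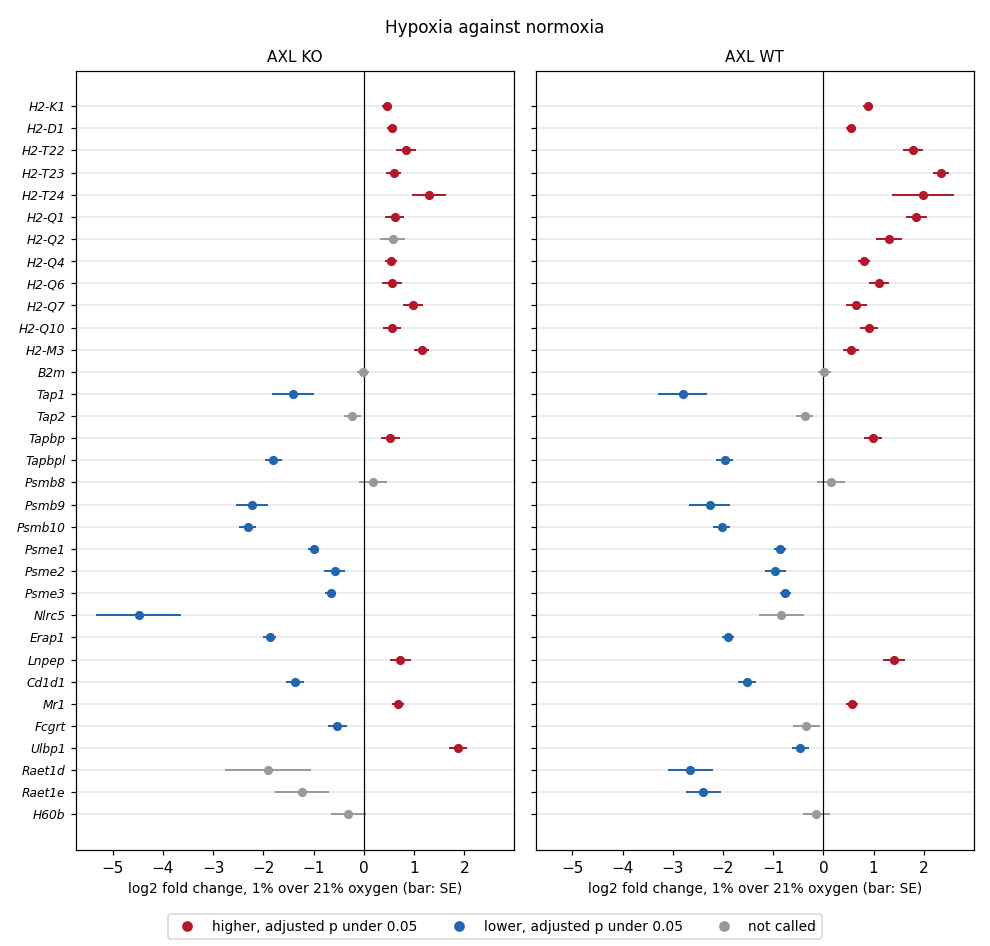
Log2 fold change of each of the 33 members, 1% over 21% oxygen, in AXL KO (left) and AXL WT (right), with bars of 1 SE; red and blue points passed the test and grey points did not. Heavy chain genes lie right of 0 in both panels and Psmb9, Psmb10, the 3 Psme genes, Tap1, Tapbpl and Erap1 left of it, while Ulbp1 lies right of 0 in AXL KO and left of it in AXL WT; the Nlrc5 point in AXL KO is a fitted value that rests on 3 counts in hypoxia.

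Tap1, Tapbpl, Psmb9, Psmb10, the 3 Psme genes, Erap1 and Cd1d1 fell in both genotypes. Tap1 fell, at -1.41 ± 0.42 in AXL KO (adjusted p = 0.0127) and at -2.8 ± 0.48 in AXL WT (adjusted p = 0.000399). Without AXL KO hypoxia library 1 the AXL KO call was lost (-1.25, adjusted p = 0.0621), and without AXL WT hypoxia library 1 the AXL WT value was -3.80. Psmb9 fell, at -2.23 ± 0.32 in AXL KO (adjusted p = 0.000124) and -2.26 ± 0.41 in AXL WT (adjusted p = 0.000513), the AXL WT value being -2.88 without AXL WT hypoxia library 1 and not called with voom and a weight per group (adjusted p = 0.0837). Psmb10 fell, at -2.31 ± 0.17 in AXL KO (adjusted p = 1.08e-06) and -2.03 ± 0.17 in AXL WT (adjusted p = 1.58e-06). The caps fell too, Psme1 at -1.0 ± 0.12 in AXL KO and -0.86 ± 0.12 in AXL WT (adjusted p = 2.36e-05 and 6.39e-05) and Psme3 at -0.66 ± 0.11 and -0.76 ± 0.11 (adjusted p = 0.000389 and 0.000121). Psme2 fell, at -0.58 ± 0.21 in AXL KO (adjusted p = 0.0308) and -0.96 ± 0.21 in AXL WT (adjusted p = 0.00196). The AXL KO call of Psme2 was lost without AXL KO normoxia library 2 or 3 (adjusted p = 0.0992 and 0.0722) or any AXL KO hypoxia library (adjusted p = 0.0609 to 0.122). Tapbpl fell, at -1.8 ± 0.16 in AXL KO (adjusted p = 3.85e-06) and -1.97 ± 0.16 in AXL WT (adjusted p = 1.63e-06). Erap1 fell, at -1.88 ± 0.12 in AXL KO (adjusted p = 4.5e-07) and -1.9 ± 0.12 in AXL WT (adjusted p = 3.09e-07), and Cd1d1 at -1.37 ± 0.18 and -1.52 ± 0.18 (adjusted p = 6.62e-05 and 2.13e-05).

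Tapbp and Lnpep rose instead. Tapbp rose by 0.53 ± 0.18 in AXL KO (adjusted p = 0.0254) and 0.99 ± 0.18 in AXL WT (adjusted p = 0.000653), the AXL KO call being lost in 8 of 21 alternatives. These were library size alone and the removal of any AXL WT normoxia library, of AXL KO normoxia library 1 or 2, or of AXL KO hypoxia library 2 or 3 (adjusted p = 0.0529 to 0.133). Lnpep rose by 0.73 ± 0.21 in AXL KO (adjusted p = 0.011) and 1.41 ± 0.21 in AXL WT (adjusted p = 0.000162). Tap2, Psmb8, B2m and H60b did not pass in either genotype. Raet1e and Raet1d fell in AXL WT, at -2.39 ± 0.35 (adjusted p = 0.00012) and -2.65 ± 0.45 (adjusted p = 0.000326), and did not pass in AXL KO, where they were near 0 throughout. Fcgrt fell, at -0.53 ± 0.19 in AXL KO (adjusted p = 0.0358), a call lost without any 1 of the 6 AXL KO libraries (adjusted p = 0.0558 to 0.15).

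The interaction, in which the hypoxia response in AXL KO is set against that in AXL WT, was called for 7 members, 2 upward and 5 downward, against 28.8% of all genes, 13.5% upward and 15.3% downward. Ulbp1 rose by 1.87 ± 0.17 in AXL KO (adjusted p = 4.62e-06) and fell, at -0.46 ± 0.17 in AXL WT (adjusted p = 0.0334), a difference of 2.33 ± 0.24 (adjusted p = 5.28e-05). The difference kept its call in 20 of 20 alternatives, whereas the fall in AXL WT lost its call in 12 of 21, among them without AXL WT normoxia library 1, 2 or 3 (adjusted p = 0.0754 to 0.139), AXL WT hypoxia library 2 or 3 (adjusted p = 0.0571 and 0.114) or AXL KO hypoxia library 3 (adjusted p = 0.0511). H2-T23 rose by 0.59 ± 0.15 in AXL KO (adjusted p = 0.00591) and by 2.34 ± 0.16 in AXL WT (adjusted p = 5.19e-07), a difference of -1.75 ± 0.22 (adjusted p = 0.000195). H2-Q1 differed by -1.24 ± 0.29 (adjusted p = 0.00796), with the smaller rise in AXL KO. H2-T22 and H2-K1 also rose less in AXL KO, with differences of -0.95 ± 0.28 (adjusted p = 0.027) and -0.42 ± 0.14 (adjusted p = 0.0362). H2-M3 rose more in AXL KO (0.61 ± 0.21, adjusted p = 0.0486). The H2-T22 call was lost in 6 of 20 alternatives, which left out AXL WT normoxia library 3, AXL KO normoxia library 2 or 3, or any AXL KO hypoxia library (adjusted p = 0.0511 to 0.0648). The H2-K1 call was lost in 9 of 20, among them without AXL WT normoxia library 1, AXL KO normoxia library 2 or 3, or any AXL KO hypoxia library (adjusted p = 0.0533 to 0.0963). The H2-M3 call was lost in 15 of 20, among them without any 1 library other than AXL WT hypoxia library 1 (adjusted p = 0.0519 to 0.145). Nlrc5 fell in AXL KO by a count ratio of 24.7 (95% counting interval 8.22 to 122, adjusted p = 0.000769) and did not pass in AXL WT (adjusted p = 0.126). The fitted fall was -4.49 on the log2 scale, and -5.34 without AXL KO hypoxia library 2. Its fitted interaction of -3.65 passed (adjusted p = 0.0186) but not without AXL KO hypoxia library 1 or 3 (adjusted p = 0.0553 and 0.0537), and it was -4.50 without AXL KO hypoxia library 2 and -3.04 without AXL WT hypoxia library 2. The count of 7 became 13 without AXL WT hypoxia library 1, 4 without AXL KO normoxia library 2 or 3 or AXL KO hypoxia library 2, and 3 without AXL KO hypoxia library 1 or 3.

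Other genes of the pathway were compared in the same fit, in which 29.9% of all genes were higher and 33% lower in AXL KO in hypoxia, and 29.7% higher and 30% lower in normoxia. Of 25 genes of interferon signalling and class I regulation, 11 were higher and 10 lower in AXL KO in hypoxia (median 0.23, beside -0.04 over all genes), and 4 were higher and 6 lower in normoxia (median -0.13, beside -0.03). Both chains of the interferon-gamma receptor were higher. Ifngr1 stood at 85.4, 95.5 and 95.6 CPM in AXL KO hypoxia and 39.9, 24.3 and 27.7 CPM in AXL WT hypoxia, a fold change of 1.59 ± 0.16 (adjusted p = 6.55e-06). Ifngr2 stood at 31.8, 37.9 and 36.5 CPM in AXL KO hypoxia and 10.6, 6.33 and 7.64 CPM in AXL WT hypoxia, a fold change of 2.11 ± 0.18 (adjusted p = 1.46e-06). In normoxia their fold changes were 1.92 ± 0.16 (adjusted p = 1.14e-06) and 2.07 ± 0.18 (adjusted p = 1.19e-06). The kinase Jak1, which those receptors use, was lower, with 71.6, 73.2 and 72.5 CPM in AXL KO hypoxia and 251, 235 and 213 CPM in AXL WT hypoxia (-1.69 ± 0.09, adjusted p = 1.96e-08). In normoxia Jak1 was lower, at -1.34 ± 0.09 (adjusted p = 1.07e-07). Irf1, which binds interferon-stimulated elements, had 20.4, 25.4 and 24.9 CPM in AXL KO hypoxia and 23.7, 4.48 and 7.64 CPM in AXL WT hypoxia. AXL WT hypoxia library 1 stood well above libraries 2 and 3, within the range of AXL KO. The Irf1 fold change was 0.98 ± 0.44 in hypoxia (adjusted p = 0.0694) and 0.20 ± 0.43 in normoxia (adjusted p = 0.699). The hypoxia value was 1.96 without AXL WT hypoxia library 1 (adjusted p = 1.85e-06) and -0.0153 without AXL WT hypoxia libraries 2 and 3.

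Constitutive proteasome genes were mostly lower in AXL KO, with 13 of 16 lower and 1 higher in hypoxia (median -0.60, beside -0.04 over all genes) and 12 of 16 lower and 0 higher in normoxia (median -0.52, beside -0.03), where 4 were not called. Over all genes 33% were lower in hypoxia and 30% in normoxia. Psma5, a subunit of the outer ring, had 46.6, 49.9 and 49.7 CPM in AXL KO hypoxia and 85.5, 99.8 and 102 CPM in AXL WT hypoxia (-0.97 ± 0.10, adjusted p = 5.51e-06). In normoxia Psma5 was lower, at -1.23 ± 0.10 (adjusted p = 6.64e-07). Psmb3, a subunit of the inner ring, was lower, at -0.82 ± 0.15 in hypoxia (adjusted p = 0.000446) and -1.05 ± 0.15 in normoxia (adjusted p = 5.9e-05). Psme4, a cap of the proteasome, was lower, at -0.88 ± 0.12 in hypoxia (adjusted p = 4.57e-05) and -0.51 ± 0.11 in normoxia (adjusted p = 0.00213). Of 10 matched chaperones and other peptidases, 1 was higher and 4 lower in AXL KO in hypoxia (median -0.14), and 5 were higher and 3 lower in normoxia (median 0.32), the lower counts being near the all-gene shares. Sec61a1, a subunit of the translocon of the endoplasmic reticulum, was higher by 0.36 ± 0.10 in hypoxia (adjusted p = 0.00651) and 1.41 ± 0.10 in normoxia (adjusted p = 1.99e-07). Its hypoxia call was lost with library size alone (adjusted p = 0.104), the compared libraries alone (adjusted p = 0.0573), voom (adjusted p = 0.071) and without AXL WT hypoxia libraries 2 and 3 (adjusted p = 0.0901). Sec61b, another subunit, was lower in hypoxia (-1.21 ± 0.12, adjusted p = 4.78e-06) and stood at -0.03 ± 0.12 in normoxia (adjusted p = 0.85). Tpp2, a cytosolic peptidase, was lower, at -0.94 ± 0.10 in hypoxia (adjusted p = 5.53e-06) and -0.77 ± 0.10 in normoxia (adjusted p = 2.48e-05).

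Of 9 class II genes 6 were too low to test, among them H2-Aa, which was at 0 in every library. Of the 3 tested, 1 was higher and 1 lower in AXL KO in hypoxia, and 1 was higher and 0 lower in normoxia. Cd74, the invariant chain, had 0.0243, 0.0224 and 0.044 CPM in AXL KO hypoxia and 0.464, 1.59 and 1.06 CPM in AXL WT hypoxia (-4.98 ± 0.72, adjusted p = 9.63e-05), the AXL KO level resting on 4 counts in all. The Cd74 value was -3.83 without AXL WT hypoxia libraries 2 and 3, and in normoxia it stood at 1.19 ± 0.58 (adjusted p = 0.0955). That normoxia value passed in 4 of 20 alternatives, with adjusted p between 0.029 and 0.0462, and was 0.54 without AXL KO normoxia library 1. H2-DMa, the partner of H2-DMb1, did not pass at 0.11 ± 0.23 in hypoxia (adjusted p = 0.709) and 0.21 ± 0.25 in normoxia (adjusted p = 0.487), and both were below 0 with library size alone (-0.08 and -0.05). Its hypoxia value was -0.12 without AXL WT hypoxia library 1 and 0.74, past the threshold, without libraries 2 and 3 (adjusted p = 0.00123). H2-DMb1, a chain of the class II peptide exchanger, was higher in AXL KO by 1.7 ± 0.26 in hypoxia (adjusted p = 0.000161) and 1.4 ± 0.25 in normoxia (adjusted p = 0.000458). Of 7 tested ligands of other natural killer receptors, 3 were higher and 3 lower in AXL KO in hypoxia (median -0.01), and 3 were higher and 2 lower in normoxia (median 0.53), beside all-gene medians of -0.04 in hypoxia and -0.03 in normoxia. Nectin3, an adhesion molecule, had 24.1, 26.4 and 27.3 CPM in AXL KO hypoxia and 2.78, 3.33 and 2.66 CPM in AXL WT hypoxia (3.15 ± 0.13, adjusted p = 3.02e-09). Clec2d, a ligand of the inhibitory receptor NKR-P1B, was higher by 2.25 ± 0.29 in hypoxia (adjusted p = 3.46e-05) and 2.06 ± 0.26 in normoxia (adjusted p = 3.18e-05). Cadm1, an adhesion molecule bound by CRTAM, was lower, at -0.59 ± 0.08 in hypoxia (adjusted p = 3.91e-05) and -0.25 ± 0.08 in normoxia (adjusted p = 0.0127), the normoxia call being lost without AXL WT normoxia library 1 or 3 (adjusted p = 0.0702 and 0.124) and with no filter (adjusted p = 0.0947).

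Some cell type markers moved with the genotype beside the members. The summed level of 10 leukocyte markers was 49.0 to 55.6 CPM in AXL KO hypoxia, 14.99 to 152 CPM in AXL WT hypoxia, 59.6 to 85.3 CPM in AXL KO normoxia and 11.1 to 12.7 CPM in AXL WT normoxia. The highest sum came from Csf1r in AXL WT hypoxia library 2, at 145 CPM. Of the 3 tested, Cd68 was higher and Lyz2 and Csf1r lower in AXL KO in hypoxia. Cd68, a lysosomal protein gene, accounted for nearly all of the AXL KO level, with 55.3, 51.4 and 48.9 CPM in AXL KO hypoxia and 9.28, 5.76 and 6.09 CPM in AXL WT hypoxia. Ptprc, Cd3e, Itgam and Nkg7 were at or near 0 in all libraries. The 6 luminal epithelial markers, Erbb2 among them, summed to 2278 to 2376 CPM in AXL KO hypoxia, 953.2 to 4487 in AXL WT hypoxia, 2159 to 2446 in AXL KO normoxia and 3112 to 3202 in AXL WT normoxia. Of the 5 tested, Epcam and Cdh1 were lower in AXL KO at both oxygen levels, the Cdh1 call in normoxia being lost without AXL WT normoxia library 2 or AXL KO normoxia library 1 or 2 (adjusted p = 0.0567 to 0.0731). The 6 fibroblast markers summed to 58.7 to 65.4 CPM in AXL KO hypoxia, 72.1 to 96.1 in AXL WT hypoxia, 186.4 to 201.3 in AXL KO normoxia and 66.1 to 72.6 in AXL WT normoxia, with Lum and Thy1 at or near 0. Of the 4 fibroblast markers tested, 2 were higher in AXL KO in hypoxia, Dcn (2.09 ± 0.29, adjusted p = 6.79e-05) and Col1a1 (1.35 ± 0.23, adjusted p = 0.000348), and Pdgfra and Pdgfrb were lower. Dcn in hypoxia was higher by 1.49 without AXL WT hypoxia libraries 2 and 3, and Pdgfrb then lost its call (adjusted p = 0.527). In normoxia Dcn (5.28 ± 0.32, adjusted p = 7.32e-08), Col1a1 (4.59 ± 0.28, adjusted p = 6.68e-08) and Pdgfrb (2.96 ± 0.18, adjusted p = 7.1e-08) were higher and 0 lower. The 6 endothelial markers summed to 15.7 to 17.5 CPM in AXL KO hypoxia, 0.751 to 1.78 in AXL WT hypoxia, 3.14 to 4.35 in AXL KO normoxia and 0.354 to 0.617 in AXL WT normoxia, nearly all of it Kdr in AXL KO, while Tie1 was at 0. Of the 4 endothelial markers tested, Kdr was higher in AXL KO at both oxygen levels, 2 were lower in hypoxia and 1 in normoxia. The part of these markers in the differences of the members was not tested.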

How the data were processed

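RNA from 12 libraries was measured by RNA-seq, and the deposited values are raw counts of fragments per gene. Per the file headers, the authors counted with featureCounts 1.6.0 against Ensembl release 93 of GRCm38, on the reverse strand, with both ends mapped and without chimeric, multi-mapping or multi-overlapping fragments. The submitters' processing notes name STAR 2.5.1b and featureCounts 1.4.6. The genotype tag contradicts the title in 6 libraries, so titles gave the groups, and the Axl counts followed the titles. Symbols came from GENCODE M21 by gene ID, with 54165 of 54232 matched. Some listed upstream genes, such as Raet1a, H60a and Ero1a, matched no row, and some genes are not reported here.

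From the deposited counts, edgeR 4.0.16 (R 4.3.3) was run with TMM scaling, filterByExpr (16767 genes kept, 37465 left out), 1 mean per group over all 12 libraries and robust quasi-likelihood tests. Adjusted p is Benjamini-Hochberg over all genes tested, called below 0.05. An SE is the fold change divided by the root of F. CPM are TMM-scaled. Intervals of count ratios are exact at 95% and cover counting error only. Tested on simulated counts of 16177 genes for AXL KO against AXL WT in hypoxia, the fit recovered 69% of 2-fold and 100% of 4-fold changes, with 13 false calls, at a simulated biological coefficient of variation of 0.2, below the 0.406 within AXL WT hypoxia. Only 100 genes were changed at each fold size, far fewer than were called in the data, and none of them had few counts. The rates therefore do not carry over to members with few counts. The members and gene lists were chosen with earlier results of these data known. Members were given in full where they averaged at least 10 CPM in 1 or more groups and were called in either genotype contrast. Nlrc5 and Irf1 were always named, with up to 3 genes of each upstream list by smallest adjusted p. Alternatives were other scalings (RLE, library size), other filters, a minimum fold, a replicate block, fits on the compared libraries alone, each library left out, AXL WT hypoxia libraries 2 and 3 left out, DESeq2 1.42.0 and limma 3.58.1 voom.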

Additional observations from a re-analysis of the deposited data

Results flagged for a closer look

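For 7 members the response to hypoxia differed between AXL KO and AXL WT by the test of the difference itself. The difference, the log2 response in AXL KO minus that in AXL WT, was 2.33 for Ulbp1, -1.75 for H2-T23, -1.24 for H2-Q1, -0.95 for H2-T22, -0.42 for H2-K1 and 0.61 for H2-M3. Nlrc5 gave -3.65, a fitted value that depends on the prior count because AXL KO hypoxia held 3 counts. Of all genes 28.8% passed the same test. The call was lost in 15 of 20 alternatives for H2-M3, 9 for H2-K1, 6 for H2-T22 and 2 for Nlrc5, and held in all 20 for H2-T23 and Ulbp1 and all 19 for H2-Q1. Without AXL WT hypoxia libraries 2 and 3 the H2-M3 difference was 0.25 (adjusted p = 0.125) and that of Nlrc5 -2.35 (adjusted p = 0.0353), and 11 members passed.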

How the results depend on the processing

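Of 3765 recomputed values for single genes, 3555 kept their direction and their side of the threshold, 153 lost a call, 33 gained one and 24 changed sign. Members called numbered 27 for AXL KO against AXL WT in hypoxia, 29 in normoxia, 26 for hypoxia in AXL KO, 27 for hypoxia in AXL WT and 7 for the interaction. With a minimum log2 fold of 1 they numbered 15, 16, 11, 15 and 4 in the same order, a stricter question by construction. The strict filter, which tests fewer genes, left 17 for hypoxia in AXL WT. Without AXL WT hypoxia libraries 2 and 3 the interaction gave 11. Leaving out 1 library at a time gave 25 to 29, 27 to 31, 20 to 27, 25 to 29 and 3 to 13. With voom and a weight per group, H2-Q2, H2-Q7, H2-Q10, Tapbp, Psmb9 and Raet1d lost their genotype calls in hypoxia. In normoxia H2-Q7, B2m and Erap1 gained a genotype call under the same setting. Over all genes the minimum fold gave 6336 calls in place of 10557 in hypoxia, 5916 in place of 10009 in normoxia, 5359 in place of 9719 for hypoxia in AXL KO, 5911 in place of 10035 in AXL WT and 2938 in place of 4830 for the interaction, which rose to 8417 without AXL WT hypoxia library 1.

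Sign changes occurred in results that had not passed, and the cause was not tested. With library size alone, AXL KO against AXL WT gave -0.0329 for Tapbpl and -0.0764 for H2-DMa in hypoxia, and -0.0039 for Erap1, -0.0489 for H2-DMa and -0.0513 for Irf1 in normoxia. Lnpep in hypoxia gave 0.0433 with no filter, 0.0209 with the replicate block, 0.0638 with voom and 0.35 without AXL WT hypoxia libraries 2 and 3. The same removal gave -0.20 for Krt18 and -0.0153 for Irf1 in hypoxia. With 1 library left out, the hypoxia values ran from -0.17 to 0.37 for Lnpep and -0.12 to 0.40 for H2-DMa, and the normoxia values from -0.069 to 0.0707 for Tapbpl and -0.0495 to 0.0634 for Sec61b.

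With the replicate number as a block, 28, 29, 25, 27 and 6 members were called in the order above. Same-numbered libraries did not all deviate together (correlations down to -0.144), so the numbers were not taken as a pairing. Depth limits Nlrc5, Raet1d, Raet1e, H2-T24 and Psmb9, which had few counts in at least 1 group. Tap1 also had few counts in part of AXL WT hypoxia.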
